A study of Mus musculus with 18 samples.

Results

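Nascent RNA of lineage-positive (Lin+) mouse fetal liver cells was compared with that of S0-Low cells, the least mature population of the erythroid series. The comparison takes the 3 Lin+ and the 3 S0-Low columns of the deposited count table, 6 of its 18 libraries. The group name Lin+ comes from the source and cell marker labels. The titles of these samples say only Lin, their growth text, like that of the other samples, speaks of sorting lineage-negative cells, and the study's text does not describe them. Both kinds of cell came from C57BL/6 embryos at e12.5 to e13.5, for which the labels name no genetic change or drug treatment, and were rested for 6 h after sorting in a medium with fetal calf serum, then given 500 µM 4-thiouridine (4sU) for 45 min. Cells take up 4sU and build it into the RNA they are making, so that the RNA purified through it (4sU-seq) is mostly RNA transcribed in that interval. S0-Low cells were sorted as negative for the lineage antigens, CD71 (the transferrin receptor) and Ter119 (an antigen of maturing red cell precursors), a gate that the study describes as holding stem and progenitor cells and early erythroid progenitors. Lin+ cells carry at least some of the lineage antigens, which per the study's methods were CD41, CD45R, CD3e, CD11b and Ly-6G/Ly-6C. The labels give no CD71 or Ter119 gate for Lin+ and name both kinds primary erythroblasts. They do not say how many embryos stand behind a library or whether replicates came from separate litters, so that p-values measure the spread between these libraries, which may be partly technical.

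The fetal liver is the main blood-forming organ of the mid-gestation embryo, and most of its output at this stage is red cells. Neutrophils and eosinophils arise there from shared granulocyte progenitors. Neutrophils make their granule proteins in a fixed order: primary granule enzymes such as myeloperoxidase come first, in promyelocytes, and secondary and tertiary granule proteins such as lactoferrin and gelatinase follow, under C/EBP epsilon. S100A8 and S100A9 form calprotectin, the most abundant cytosolic protein of neutrophils, and ficolin B (Fcnb) is a sugar-binding protein of the complement lectin pathway made by myeloid cells.

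Lin+ libraries held between 28066003 and 39859680 counts and S0-Low libraries between 9452476 and 35264717, and S0-Low replicate 3 was the shallowest of the 18 libraries. Values below are normalized counts, that is, counts brought to the mean of the libraries' effective sizes. They are not divided by gene length, so levels are compared between libraries and not between genes. A floor of 3 counts was worth 2.48, 2.39 and 7.97 normalized counts in S0-Low replicates 1, 2 and 3, and 1.99 to 3.23 in the Lin+ libraries. Such floors, and the intervals given for small counts, reflect counting error alone, since amplification was done without molecular identifiers. Replicates differed by far more than counting error, where the chi-square divided by its degrees of freedom was 117 to 200 between Lin+ libraries and 108 to 189 between S0-Low libraries. On the first principal component of all 18 libraries, which holds 49.2% of the variance, the 3 Lin+ libraries lay together (between -218.5 and -208.0), whereas S0-Low replicates 1 and 2 lay at -160.1 and -140.2 and replicate 3 at -84.3, nearer to the later erythroid populations. S0-Low replicate 3 also had the highest count of the S0-Low libraries for several erythroid genes, among them Klf1 (6912 against 2595 and 3617), Car1 (3761 against 774 and 1008) and Ermap (10681 against 2946 and 4932). What part this library's depth or composition has in the results was not tested beyond leaving it out.

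The genes of the lineage antigens themselves separated the groups only in part. Ptprc, which encodes CD45 and in its B cell form CD45R, had normalized counts of 7165, 9115 and 14286 in Lin+ replicates 1 to 3 and of 4196, 2909 and 5416 in S0-Low. Itga2b, which encodes CD41, had 14760, 6243 and 5853 in Lin+ and 3945, 3988 and 709 in S0-Low. Neither pair of groups overlapped, but neither difference passed the test (edgeR's quasi-likelihood test, Benjamini-Hochberg adjusted p = 0.547 for Ptprc and 0.301 for Itga2b). Ly6c2, a gene of the Ly-6C antigen, had 306, 521 and 508 in Lin+ and 0, 2.39 and 0 in S0-Low, a ratio of 558 (95% counting interval 191 to 2705) that missed the threshold (adjusted p = 0.0595 in the same test). By other methods 1 of the 3 tested antigen genes was called higher, both in DESeq2 and in an edgeR fit of only the 6 libraries. The shares of all genes called higher there were 3.03% and 3.26%. Ly6g had 45.2, 3.68 and 13.9 in Lin+ and 3.31, 0 and 0 in S0-Low, Cd3e and Ly6c1 had at most 2.65 in any of the 6 libraries, and these genes were too low to be tested. Itgam, which encodes CD11b, is listed at 0 in all 18 libraries. Irf8 and Myd88 are also listed at 0 throughout, so that a 0 of this kind says nothing of these cells. All the values here are from pools of sorted cells, in which fewer cells of a type and less RNA per cell cannot be told apart.

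Across the 17755 genes tested, 88 passed the threshold as higher in Lin+ (0.496%) and 39 as lower (0.22%), which together are 0.715%. The threshold was an edgeR adjusted p below 0.05. The common spread between replicates, estimated over all 18 libraries and so not that of Lin+ and S0-Low alone, was large (biological coefficient of variation 0.771). An unadjusted p under 0.05 was found for 1748 genes (9.85%). In a fit of only the 6 libraries 3.26% of genes were called higher and 0.333% lower, and in DESeq2 3.03% and 0.849%. The calls were therefore few against the number of genes whose groups did not overlap, which was 2780 higher (15.7%) and 1236 lower (6.96%) in Lin+. The median log2 fold change over all tested genes was 0.02. The counts depended on single libraries: without Lin+ replicate 1, 2 or 3 there were 40, 35 or 29 genes higher and 17, 20 or 13 lower, and without S0-Low replicate 1, 2 or 3 there were 37, 32 or 46 higher and 32, 23 or 20 lower. Of the calls, 24 higher and 9 lower held in each of the 6 omissions.

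**Figure D1:**
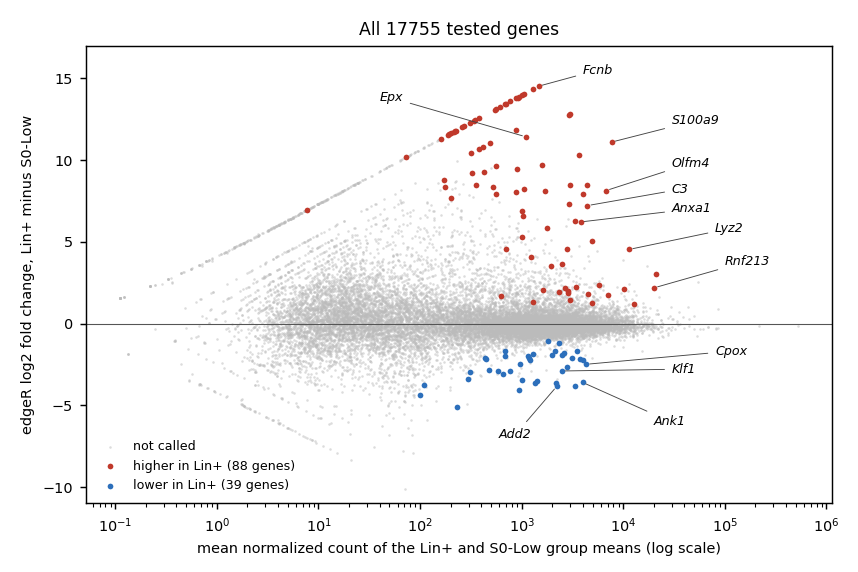
Mean normalized count (x axis, log scale) against edgeR's log2 fold change of Lin+ minus S0-Low (y axis) for the 17755 tested genes; each point is a gene, red for the 88 called higher in Lin+, blue for the 39 called lower and grey for the rest. Red points reach larger fold changes than blue ones, and the straight upper edge is formed by genes with no count in any S0-Low library, whose fitted fold change is set by the prior count.

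Genes of the later neutrophil granules were abundant in Lin+ and nearly without counts in S0-Low. Of the 15 genes of this list, 14 were tested, 9 rose and none fell, against 0.496% of all tested genes called higher. All 14 had groups that did not overlap, against 15.7% of all tested genes. The median log2 fold change of the list was 9.38, or 8.12 with the genes without S0-Low counts set at their lower bound, against 0.02 over all genes. The list took 0.164%, 0.201% and 0.186% of the counts of Lin+ replicates 1 to 3 and 0.00132%, 0.000938% and 0.000751% of those of S0-Low. Beside the 9 calls, 12 of the 14 passed in a fit of only the 6 libraries (background 3.26%) and 10 in DESeq2 (background 3.03%).

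S100a9 (ENSMUSG00000056071, chr3:90692630-90695721 in GRCm38) had the lowest adjusted p of all genes. Its normalized counts were 13526, 18033 and 14734 in Lin+ and 4.13, 10.4 and 5.31 in S0-Low, means of 15431 ± 2333 and 6.61 ± 3.31 (SD, n = 3 each), so that every Lin+ library stood more than 1000-fold above every S0-Low library. The ratio of means was 2336 and the log2 fold change 11.11 ± 0.80 (SE), with an adjusted p of 5.57e-06 in edgeR's quasi-likelihood test. S100a8, its partner in calprotectin and its neighbour on chromosome 3 (90669071-90670034), had 4963, 7945 and 5159 in Lin+ and 1.65, 0 and 0 in S0-Low. With 2 counts in all of S0-Low, the ratio was 10928 with a 95% counting interval of 3025 to 90240 (adjusted p = 5.92e-05, edgeR). Both genes kept the call in each of the 6 omissions.

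Fcnb (ENSMUSG00000026835, chr2:28076479-28084910) had 2506, 2401 and 3945 in Lin+ and no count in any S0-Low library, which makes it at least 689-fold higher against a floor of 3 counts in each S0-Low library, 4.28 normalized counts on average (adjusted p = 0.000268, edgeR). Camp, the precursor of the antimicrobial peptide cathelicidin, had 1709, 1605 and 2158 against 0 throughout and was at least 426-fold higher. Lcn2, a protein that captures bacterial siderophores, had 3206, 2984 and 1509 against 0 and was at least 600-fold higher. Mmp9, the gelatinase of tertiary granules, was at least 288-fold higher (1244, 1086 and 1371 against 0), and Cd177, a surface glycoprotein of neutrophils, at least 159-fold (740, 533 and 775 against 0). The adjusted p-values of these 4 genes in edgeR were 0.00473, 0.00253, 0.00711 and 0.0255. Cd177 lost its call in every omission, whereas Fcnb, Camp, Lcn2 and Mmp9 kept it in all 6.

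The other 4 rises of the list were in genes with some counts in S0-Low. Ltf, lactoferrin, had 6981, 8774 and 10644 in Lin+ and 63.6, 4.79 and 0 in S0-Low. Ngp, a cathelin-like protein of secondary granules, had 8264, 7811 and 6058 against 0, 0 and 26.6. Mmp8, neutrophil collagenase, had 2822, 5172 and 2055 against 10.7, 22.3 and 0, and Olfm4, olfactomedin 4, which marks a subset of neutrophils, had 11656, 14177 and 14687 against 0, 0 and 162. The ratios of means were 386 for Ltf, 833 for Ngp, 304 for Mmp8 and 250 for Olfm4 (adjusted p = 0.00698, 0.00118, 0.0104 and 0.0209, edgeR). The S0-Low counts of Ngp and Olfm4 came from replicate 3 alone, and those of Ltf and Mmp8 from replicates 1 and 2. Olfm4 lost its call when Lin+ replicate 1, 2 or 3 was left out, and Mmp8 in 2 of the 6 omissions. Of the 5 tested genes that did not pass, Pglyrp1, a bactericidal peptidoglycan-binding protein, came nearest, with 1385, 1287 and 935 against 16.5, 2.39 and 0 (adjusted p = 0.0508), and Hp (haptoglobin), Ltb4r1, Adam8 and Chil3 had adjusted p-values of 0.0742, 0.329, 0.266 and 0.134.

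**Figure D2:**
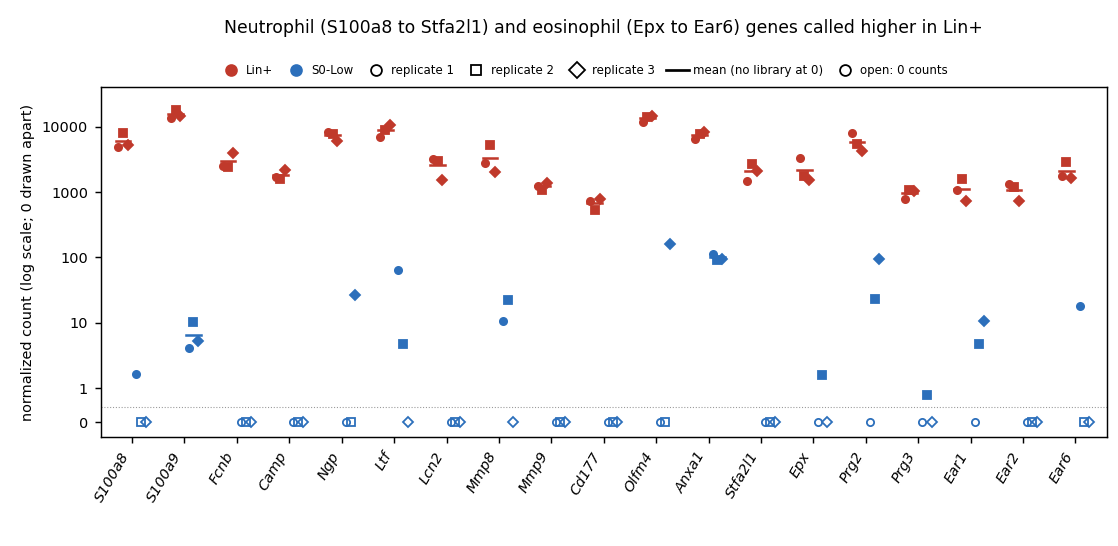
Normalized count (y axis, log scale) of the 19 neutrophil and eosinophil genes called higher in Lin+, in the 3 Lin+ (red) and 3 S0-Low (blue) libraries; symbols give the replicate, horizontal bars the group mean where no library is at 0, and open symbols at the bottom libraries with no count. Every red symbol lies above 500, and no blue symbol lies above 162.

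Among the 12 genes set down as S100 and late neutrophil genes, 11 were tested and 4 rose, S100a8, S100a9, Anxa1 and Stfa2l1, and none fell, against 0.496% of all tested genes called higher. The fit of the 6 libraries called 7 higher and DESeq2 5 (backgrounds 3.26% and 3.03%). The edgeR call of each of the 4 was kept in all 6 omissions. Anxa1, annexin A1, a phospholipid-binding protein with anti-inflammatory action, had 6466, 7674 and 8415 in Lin+ and 114, 91.7 and 95.6 in S0-Low, a ratio of 74.8 with little spread in either group (log2 fold change 6.22 ± 0.68, adjusted p = 0.000107, edgeR). Cxcr2 and Csf3r did not stand apart in this way. Cxcr2, the receptor for the chemokines that release neutrophils from the marrow, had 507, 1267 and 1797 in Lin+ and 204, 354 and 1339 in S0-Low, so that the groups overlapped (log2 fold change 0.92 ± 1.15). Csf3r, the receptor for G-CSF, had 5047, 3956 and 4931 against 1823, 1193 and 2606 (1.31 ± 0.76, adjusted p = 0.674, edgeR). Retnlg and Wfdc21, which appear late in neutrophil maturation, had counts in Lin+ (251, 361 and 292, and 425, 477 and 237) and none in S0-Low, and missed the threshold (adjusted p = 0.0671 and 0.0567, edgeR).

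The stretch of 250 bases before the start site of the 5 called neutrophil genes with the lowest adjusted p and a promoter in RefSeq's GRCm38.p6 table is shown here, the start being the one the table gives, because these genes rose together and C/EBP factors and PU.1, which drive granulocyte genes, bind known short motifs. Capitals mark matches to the C/EBP motif TTGCNNAA and to the PU.1 core GAGGAA, each sought on both strands. The windows are chr3:90695722-90695971 on the minus strand, chr3:90668821-90669070 on the plus strand, chr19:20390672-20390921 on the minus strand, chr2:28084879-28085128 on the minus strand and chr9:110419558-110419807 on the plus strand, each written 5′ to 3′ on the gene's strand. The start of Fcnb in that table lies inside the gene's outer bounds, so that 32 of the 250 bases are within the bounds given above.
S100a9: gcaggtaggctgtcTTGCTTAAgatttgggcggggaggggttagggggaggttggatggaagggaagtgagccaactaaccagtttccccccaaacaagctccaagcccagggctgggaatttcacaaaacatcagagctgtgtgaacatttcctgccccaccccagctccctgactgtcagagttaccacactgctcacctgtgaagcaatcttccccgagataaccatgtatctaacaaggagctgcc
S100a8: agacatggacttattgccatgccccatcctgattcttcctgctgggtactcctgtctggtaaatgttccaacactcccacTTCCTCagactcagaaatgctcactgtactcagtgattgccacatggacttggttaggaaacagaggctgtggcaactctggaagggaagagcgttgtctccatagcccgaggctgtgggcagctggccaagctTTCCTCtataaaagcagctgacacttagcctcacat
Anxa1: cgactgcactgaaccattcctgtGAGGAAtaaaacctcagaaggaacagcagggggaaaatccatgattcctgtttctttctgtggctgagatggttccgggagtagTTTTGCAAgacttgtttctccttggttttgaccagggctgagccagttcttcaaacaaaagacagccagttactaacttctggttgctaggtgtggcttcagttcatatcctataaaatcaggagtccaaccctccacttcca
Fcnb: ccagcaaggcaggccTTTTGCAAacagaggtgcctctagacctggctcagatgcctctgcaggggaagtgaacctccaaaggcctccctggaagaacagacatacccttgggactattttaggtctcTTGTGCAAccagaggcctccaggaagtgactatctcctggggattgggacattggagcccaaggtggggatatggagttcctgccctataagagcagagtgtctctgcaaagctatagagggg
Ngp: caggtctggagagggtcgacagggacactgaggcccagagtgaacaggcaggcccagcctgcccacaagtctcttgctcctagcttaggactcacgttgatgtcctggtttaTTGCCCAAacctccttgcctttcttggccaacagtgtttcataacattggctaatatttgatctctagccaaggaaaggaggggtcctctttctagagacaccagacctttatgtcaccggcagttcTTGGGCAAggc
Fcnb and Ngp each held 2 C/EBP matches, at 235 and 123 and at 138 and 11 bases before the start. S100a9 held 1, at 236, and Anxa1 held 1 of each motif, whereas S100a8 held only PU.1 matches, at 170 and 36. A C/EBP match was found in 13 of the 68 promoters of genes called higher (19.1%), in 2 of the 32 of genes called lower (6.25%), in 7.42% of the 11300 tested genes with a window and in 9.56% of all 32851 windows. For PU.1 the shares were 36.8%, 18.8%, 22.7% and 23.3%. A match is a description of these letters and not evidence of binding, and no test was run on the shares.

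Primary granule genes had higher values in Lin+, and none of the 9 passed the threshold in edgeR, where 8 had an unadjusted p under 0.05, against 9.85% of all tested genes. All 9 had positive fold changes and groups that did not overlap (15.7% of all tested genes were of this kind), with a median log2 fold change of 2.71. Mpo, myeloperoxidase, had 144646, 75770 and 60671 in Lin+ and 23663, 13800 and 10429 in S0-Low, a ratio of 5.87 (adjusted p = 0.271, edgeR). Ctsg, cathepsin G, had 3282, 2534 and 3110 against 655, 327 and 380, and had the lowest adjusted p of the list (0.103). Elane, neutrophil elastase, had 3546, 1958 and 1714 against 159, 43.1 and 2.66. Mpo, Prtn3 (proteinase 3), Ctsg and Elane had counts in all 3 S0-Low libraries, though the 2.66 of Elane in replicate 3 is under the floor of 3 counts there (7.97). In that library 2 of the 9 genes were at 0, and in S0-Low replicates 1 and 2 none was. Of the 15 later granule genes, 9, 9 and 13 were at 0 in S0-Low replicates 1 to 3. The list took 0.338% to 0.568% of the counts of Lin+ libraries and 0.0713% to 0.101% of those of S0-Low. A fit of only the 6 libraries called 7 of the 9 higher, and DESeq2 5 (backgrounds 3.26% and 3.03%).

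The stefin A genes, which encode small inhibitors of cysteine proteases and lie in a cluster on chromosome 16, rose as a group. This list was drawn up after the values were seen. All 7 of its tested members rose, against 0.496% of all tested genes: Stfa1, Stfa2, Stfa2l1, Stfa3, BC100530, Cstdc4 and Cstdc6. Stfa1 had 6641, 9481 and 7716 in Lin+ and 70.3, 22.3 and 0 in S0-Low, and BC100530 had 4143, 7247 and 5980 against 1.65, 0 and 0 (adjusted p = 0.00463 and 5.49e-05, edgeR). Stfa2, Stfa2l1 and Stfa3 had no count in any S0-Low library and were at least 476-, 495- and 439-fold higher. The copies share sequence, so that counts may be split between them: of the stretches of 31 bases in their coding transcripts, 62.3% of those of Stfa1, 43.2% of Stfa2l1, 40.1% of BC100530, 46.1% of Cstdc4, 50.7% of Cstdc6 and 32.2% of Stfa2 also occur in another gene, whereas Stfa3 shared none. The summed level of the cluster, which splitting among its listed members leaves unchanged, was 0.0617%, 0.106% and 0.0914% of the counts in Lin+ and 0.000247%, 0.000125% and 1.06e-05% in S0-Low. Splitting with genes outside the list was not checked.

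Eosinophil granule genes were present in Lin+ and close to 0 in S0-Low. Of 9 genes, 8 were tested, 6 rose (against 0.496% of all genes) and none fell, with a median log2 fold change of 8.08, or 7.95 with the gene without S0-Low counts at its bound. Epx, eosinophil peroxidase, had 3320, 1738 and 1532 in Lin+ and 0, 1.60 and 0 in S0-Low, a ratio of 4130 (95% counting interval 1143 to 34107, adjusted p = 0.0134, edgeR). Prg2, major basic protein, had 7902, 5361 and 4233 against 0, 23.1 and 93.0, and its homologue Prg3 had 793, 1058 and 1046 against 0, 0.798 and 0 (adjusted p = 0.0492 and 0.0112). The eosinophil-associated ribonucleases Ear1, Ear2 and Ear6 had Lin+ counts of 718 to 1563, 732 to 1352 and 1640 to 2881, and at most 10.6, 0 and 18.2 in S0-Low. Ear1 and Ear2 share sequence (46% of the 31-base runs of Ear1 and 55.3% of those of Ear2 occur in another gene), so that their separate counts are uncertain, and 7% of those of Ear6 do. These calls were less stable than the neutrophil ones. Without Lin+ replicate 1, 2 or 3 the list kept 2, 1 or 2 calls, and without S0-Low replicate 1, 2 or 3 it kept 2, 0 or 2. Of the receptors, Ccr3, the eotaxin receptor, had 199, 143 and 331 against 5.79, 5.58 and 0, and Il5ra had 695, 939 and 955 against 127, 82.2 and 475, and neither passed (adjusted p = 0.161 and 0.839, edgeR).

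Genes of monocytes and macrophages had higher values in Lin+ in nearly every case, and 1 of 23 tested was called in edgeR (0.496% of all tested genes were called higher). The fit of the 6 libraries called 12 of them and DESeq2 also 12 (backgrounds 3.26% and 3.03%). The exception was Slc40a1, the iron exporter ferroportin, with 491, 676 and 928 in Lin+ and 489, 641 and 1626 in S0-Low. The median log2 fold change was 4.07, and 22 of the 23 had groups that did not overlap, against 15.7% of all tested genes. Lyz2, lysozyme of granulocytes and macrophages, rose from 585, 445 and 1820 in S0-Low to 19342, 21365 and 25256 in Lin+, a ratio of 23.1 (log2 fold change 4.54 ± 0.81, adjusted p = 0.0130, edgeR), and lost the call without Lin+ replicate 3 and without S0-Low replicate 1 or 2. Of its 31-base runs, 32.9% are shared with Lyz1, which had at most 25.9 in any library. Csf1r, the receptor for M-CSF, had 6146, 4007 and 6364 against 1233, 911 and 1448 (adjusted p = 0.175), and Ccr2, a chemokine receptor of monocytes, 1555, 3236 and 5878 against 287, 315 and 1323 (0.368). Adgre1, the macrophage antigen F4/80, had 2192, 1600 and 1588 against 76.0, 28.7 and 0 (0.0694). Some genes of the resident liver macrophage that takes part in red cell production had few or no counts in S0-Low. Vcam1 had 157, 89.7 and 446 in Lin+ against 0, 1.60 and 0, the complement gene C1qb 467, 61.0 and 166 against 0, 3.19 and 0, and C1qa and C1qc at most 91.5 in Lin+ and no S0-Low count. Timd4 had at most 39.8, Cd5l at most 50.4 and Vsig4 at most 2.21 in any of the 6 libraries. Spic, of the same list, did not go this way, with 0, 0 and 13.3 in Lin+ against 32.2, 0 and 0 in S0-Low. In each of the 3 complement genes Lin+ replicate 2 was lowest, at 3.68, 61.0 and 6.62 against 91.5, 467 and 77.5 in replicate 1.

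Among 17 tested transcription factors of the myeloid lineage, Cebpb, Cebpe and Id2 rose (against 0.496% of all tested genes) and none fell. The fit of the 6 libraries called 8 higher and DESeq2 4 (backgrounds 3.26% and 3.03%), and all 17 had positive fold changes (median 2.36). Cebpe, the factor of the secondary granule stage, had 1555, 2290 and 2200 in Lin+ and 2.48, 25.5 and 23.9 in S0-Low, a ratio of 116 (adjusted p = 0.0277, edgeR). Cebpb, which acts in emergency granulopoiesis and in macrophages, had 8693, 12585 and 8038 against 1866, 2677 and 1155, a ratio of 5.14 (adjusted p = 0.0302). Id2, an inhibitor of E proteins, had 4133, 6527 and 3344 against 452, 491 and 173 (adjusted p = 0.0382). All 3 lost the call when any of the 6 libraries was left out. The other 14 did not pass the test, and they were not sorted by stage. Their fold changes were not all smaller, as Gfi1 below had a larger one than Cebpb (log2 fold change 2.36 ± 0.49). Cebpa had 2863, 3403 and 3055 against 2119, 1702 and 1684 (log2 fold change 0.76 ± 0.81), Spi1, which encodes PU.1, 6329, 8418 and 8478 against 3076, 2546 and 1697 (1.67 ± 0.95), and Gfi1, a repressor needed for neutrophils, 1215, 2430 and 2627 against 132, 188 and 5.31 (4.25 ± 1.61), with adjusted p-values of 0.935, 0.658 and 0.325 in edgeR.

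The phagocyte NADPH oxidase makes superoxide from a membrane pair (Cybb, Cyba) and cytosolic subunits. Cybb, its catalytic subunit, rose from 160, 63.0 and 31.9 in S0-Low to 8132, 4973 and 6857 in Lin+ (ratio 78.5, adjusted p = 0.0302, edgeR), the only call among 6 tested genes, against 0.496% of all tested genes. The other 5 genes did not pass, and each had higher values in every Lin+ than in every S0-Low library, as did 15.7% of all tested genes: among them, Ncf1, a cytosolic subunit, had 9403, 9470 and 10287 against 2200, 2003 and 2338, and the GTPase Rac2 8163, 6447 and 6287 against 5246, 3473 and 5690. Of 17 tested receptors and integrins of phagocytes, C5ar1 and Fpr1, receptors for the complement fragment C5a and for bacterial formyl peptides, rose, against the same 0.496%. Both had no S0-Low count and were at least 128- and 146-fold higher, with 687, 517 and 434 and with 643, 751 and 487 in Lin+ (adjusted p = 0.0248 and 0.0319). Of 21 tested genes of innate sensing, Clec4n, the fungal receptor dectin-2, rose, with 849, 578 and 464 against 0.827, 0 and 0 (adjusted p = 0.00786, edgeR). The fit of the 6 libraries called 5 of the oxidase genes, 11 of the receptors and integrins and 5 of the sensing genes higher (background 3.26%), and DESeq2 3, 6 and 3 (3.03%). All 17 and all 21 had positive fold changes, with medians of 3.90 and 2.99. Itgb2, the shared chain of the leukocyte integrins, had 7667, 7062 and 7002 against 1973, 1457 and 685, and Tlr2 and Tlr4, receptors for bacterial lipoproteins and endotoxin, 1609, 1571 and 1775 against 336, 231 and 5.31 and 459, 839 and 1235 against 128, 144 and 274, none of them called. Cybb, C5ar1 and Fpr1 lost the call in every omission, and Clec4n without S0-Low replicate 2.

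Megakaryocyte and platelet genes, whose CD41 is part of the lineage panel, had higher values in Lin+. None of 22 tested genes was called in edgeR, where 8 had an unadjusted p under 0.05, while DESeq2 called 5 higher and the fit of the 6 libraries 6, against 9.85%, 3.03% and 3.26% of all genes. All 22 had positive fold changes (median 1.64), and 16 had groups that did not overlap, against 15.7% of all tested genes. Pf4, platelet factor 4, had 7270, 1602 and 3207 in Lin+ against 277, 345 and 79.7, and Vwf, von Willebrand factor, 10856, 3290 and 5269 against 652, 671 and 1538, with Lin+ replicate 1 highest in both. Thbs1, thrombospondin 1, came nearest to the threshold, with 30808, 27124 and 35651 against 2189, 4071 and 1966 (log2 fold change 3.51 ± 0.86, adjusted p = 0.0701, edgeR). Gp9, a chain of the platelet receptor for von Willebrand factor, overlapped (269, 229 and 306 against 212, 207 and 252). The list took 0.515%, 0.329% and 0.444% of the counts of Lin+ replicates 1 to 3 and 0.125%, 0.128% and 0.151% of those of S0-Low.

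Mast cell and basophil, dendritic cell and lymphoid lists had no calls in edgeR. The counts that follow stand against 9.85% of all genes for an unadjusted p under 0.05, 3.03% higher and 0.849% lower for DESeq2, and 3.26% higher for the fit of the 6 libraries. Of the mast cell and basophil genes, 6 had an unadjusted p under 0.05, DESeq2 called 2 higher and the fit of the 6 libraries 1. Of the dendritic cell and MHC class II genes, 5 had an unadjusted p under 0.05, DESeq2 called 3 higher and 1 lower, and the fit of the 6 libraries 4 higher. Of the B cell genes, 4 had an unadjusted p under 0.05, DESeq2 called 3 higher and the fit of the 6 libraries 0. Hdc, histidine decarboxylase of basophils and mast cells, had 8663, 11494 and 5318 in Lin+ against 860, 464 and 104 (log2 fold change 4.15 ± 1.12, adjusted p = 0.109, edgeR), and Ms4a2, a chain of the IgE receptor, 1088, 2115 and 781 against 112, 120 and 0, while the mast cell protease Cma1 had at most 27.9. Cd74, the invariant chain of MHC class II, had 2139, 1369 and 893 against 60.3, 6.38 and 0 (adjusted p = 0.161), and H2-Aa and H2-Eb1 had 87.5 to 265 in Lin+ and no S0-Low count. Other genes of that list went the other way, with 9 positive and 2 negative fold changes. Groups did not overlap in 7 higher genes and 1 lower gene (15.7% and 6.96% of all tested genes). The list's share of the counts overlapped, at 0.0191% to 0.0212% in Lin+ and 0.016% to 0.0207% in S0-Low. Of 14 tested genes of T, NK and innate lymphoid cells, none was called in edgeR, with a median log2 fold change of 1.75, 2 had an unadjusted p under 0.05, DESeq2 called 0 and the fit of the 6 libraries 1 higher. CD45R and CD3e were in the panel. Cd79a had at most 38.5, Cd3d at most 11.6 and Ms4a1 at most 6.63 in any of the 6 libraries, and Cd8a and Ncr1 are at 0 in all 6. Even so, 12 of the 13 tested B cell genes had positive fold changes (median log2 fold change 3.13). In 8 of them every Lin+ library lay above every S0-Low library, against 15.7% of all tested genes. The B cell list took 0.0109% to 0.0173% of the counts in Lin+ and 0.00579% to 0.00719% in S0-Low, and most of it was Ebf1, Ighm and Cd79b in both groups.

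None of 25 tested genes of stem and progenitor cells was called in edgeR, DESeq2 or the fit of the 6 libraries, while 1 was called lower with the replicate number as a block and 2 with the block in the fit of the 6 libraries (backgrounds 0.648% and 1.03%). In edgeR 3 had an unadjusted p under 0.05, against 9.85% of all tested genes, and 7 had a positive fold change, with a median of -0.40. Kit, the receptor for stem cell factor, had 6661, 6885 and 14370 in Lin+ and 13157, 10272 and 23330 in S0-Low, Cd34 3219, 3242 and 2724 against 4768, 2562 and 3286, and Myb, a factor of early progenitors, 15703, 16724 and 25018 against 22212, 23708 and 36160. In each of these the groups overlapped. Gata2, a factor of stem, mast and eosinophil progenitors, had 9306, 19628 and 11771 against 8057, 9368 and 5374. In 3 of the 25 genes every Lin+ library lay below every S0-Low library, against 6.96% of all tested genes: Lmo2 (6126, 5470 and 8992 against 11143, 14470 and 15529), Gfi1b (3822, 2576 and 3022 against 4285, 5840 and 8091) and Spns2. In 2 of the 25 every Lin+ library lay above every S0-Low library, against 15.7% of all tested genes. Of 21 tested cytokine receptors, none was called in edgeR, where 7 had an unadjusted p under 0.05, while DESeq2 called 4 higher and the fit of the 6 libraries 5 (backgrounds 9.85%, 3.03% and 3.26%). Csf2rb, the beta chain shared by the GM-CSF, IL-3 and IL-5 receptors, and Csf2rb2, a beta chain of the IL-3 receptor, had 15163 to 24389 and 4535 to 7395 in Lin+ against 3026 to 4147 and 436 to 742 (log2 fold changes 2.41 ± 0.87 and 3.25 ± 0.86, adjusted p = 0.285 and 0.0964, edgeR), and Epor, the erythropoietin receptor, was the only gene of that list whose Lin+ libraries all lay below those of S0-Low (690, 546 and 472 against 994, 1931 and 1703).

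Erythroid genes were lower in Lin+. Of 30 tested genes, 9 fell (against 0.22% of all tested genes) and none rose (8 were lower in a fit of only the 6 libraries and 11 in DESeq2, backgrounds 0.333% and 0.849%), 29 had negative fold changes, and 21 had all Lin+ libraries below all S0-Low libraries (against 6.96% of all tested genes). The median log2 fold change was -1.80. The list took 0.174%, 0.178% and 0.202% of the counts in Lin+ replicates 1 to 3 and 0.284%, 0.387% and 0.591% in S0-Low replicates 1 to 3.

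Genes of the red cell membrane and its skeleton were among the falls. Ank1, ankyrin, which ties the skeleton to the membrane (chr8:22974836-23150501), had 382, 817 and 622 in Lin+ and 7563, 7224 and 7294 in S0-Low, 12.1-fold higher in S0-Low (log2 fold change -3.60 ± 0.38, adjusted p = 9.27e-05, edgeR). Add2, beta adducin, which caps actin in the membrane skeleton, had 136, 509 and 222 against 3687, 5107 and 3637, 14.3-fold higher in S0-Low (adjusted p = 7.5e-05), and Rhag, a chain of the Rh blood group complex, 152, 379 and 161 against 1888, 2962 and 3012, 11.4-fold higher in S0-Low (adjusted p = 9.27e-05). These 3 genes kept the call in each of the 6 omissions. Epb41, protein 4.1, overlapped (14137, 10275 and 13185 against 13419, 11437 and 15797). For Add2 and Rhag, the called erythroid genes of lowest adjusted p with a promoter in the RefSeq table, the 250 bases before the start in that table are shown here, at chr6:86028431-86028680 and chr17:40810899-40811148, both on the plus strand, with matches to the GATA motif AGATAA and the KLF motif CCNCNCCC, on either strand, in capitals. The last 50 bases of the Rhag window lie within the outer bounds of the gene (chr17:40811099-40844094).
Add2: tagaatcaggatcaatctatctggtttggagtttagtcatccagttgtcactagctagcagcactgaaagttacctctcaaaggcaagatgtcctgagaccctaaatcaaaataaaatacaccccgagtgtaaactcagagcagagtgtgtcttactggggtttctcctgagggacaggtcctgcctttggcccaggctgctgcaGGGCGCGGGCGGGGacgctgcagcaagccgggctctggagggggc
Rhag: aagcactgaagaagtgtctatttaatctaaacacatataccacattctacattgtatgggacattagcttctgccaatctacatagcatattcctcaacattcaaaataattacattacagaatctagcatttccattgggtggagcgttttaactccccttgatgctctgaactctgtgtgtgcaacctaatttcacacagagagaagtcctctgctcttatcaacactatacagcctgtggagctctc
Add2 held 2 overlapping KLF matches, starting 45 and 39 bases before the start, and neither window held a match to AGATAA. No other form of the GATA motif was sought, in these windows or for the shares below, so that sites of another form are not counted. The Rhag window holds ttatca, such a form on the other strand. Among promoters of genes called lower, 6 of 32 held a GATA match (18.8%), against 10.3% of the 68 of genes called higher, 6.35% of tested genes and 9.99% of all windows. For KLF the shares were 50%, 47.1%, 62.9% and 45.9%.

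Klf1, the transcription factor that switches on much of the red cell programme, fell from 2595, 3617 and 6912 in S0-Low to 370, 752 and 630 in Lin+, 7.49-fold higher in S0-Low (log2 fold change -2.90 ± 0.52, adjusted p = 0.0112, edgeR). Its call was lost without Lin+ replicate 1 or 3 and without S0-Low replicate 3. Gata1, which megakaryocytes, mast cells and eosinophils also express, had 3059, 2233 and 1941 against 2724, 3885 and 6994, and the groups overlapped (-0.91 ± 0.39, adjusted p = 0.422). Nfe2, shared with megakaryocytes, had 9019, 10138 and 12123 against 7112, 9810 and 11374 (0.14 ± 0.57). Of the remaining calls, Car1 (carbonic anhydrase 1) had 127, 111 and 275 against 774, 1008 and 3761, Kel (the Kell blood group protease) 96.9, 542 and 248 against 1051, 1981 and 1865, Ermap (a blood group protein) 92.6, 446 and 801 against 2946, 4932 and 10681, and Blvrb (biliverdin reductase B) 485, 434 and 434 against 1274, 1528 and 2964. Their adjusted p-values in edgeR were 0.0178, 0.0311, 0.0272 and 0.0407. Car1 held its call in 3 of the 6 omissions, Kel in 2, and Ermap and Blvrb in 1. The number of erythroid calls was 4, 5 or 4 without Lin+ replicate 1, 2 or 3 and 9, 5 or 3 without S0-Low replicate 1, 2 or 3. The globin genes were low in all 6 libraries, with at most 778 in any of them, and none was called in edgeR, DESeq2 or the fit of the 6 libraries, while 3 of 7 tested had an unadjusted p under 0.05 in edgeR, against 9.85% of all tested genes. Hba-a1 had 42.0, 144 and 79.6 against 145, 423 and 579, and 72.5% of its 31-base runs occur in another gene, mostly Hba-a2.

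**Figure D3:**
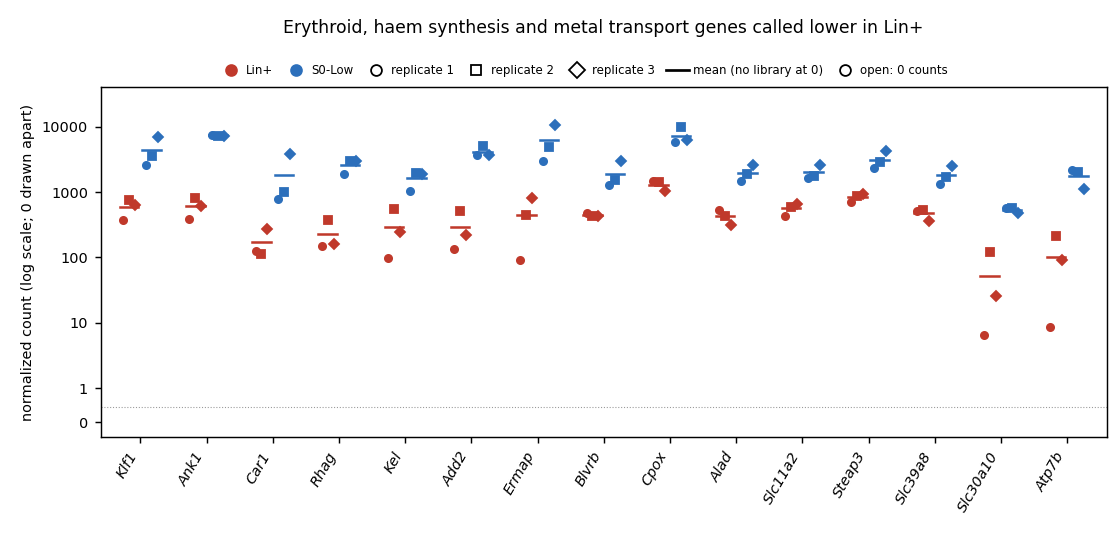
Normalized count (y axis, log scale) of 15 genes called lower in Lin+, in the 3 Lin+ (red) and 3 S0-Low (blue) libraries; symbols give the replicate and horizontal bars the group mean. In every gene the 3 blue symbols lie above the 3 red ones, with a wide gap for Ank1 and Add2 and a narrow one for Kel.

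Haem synthesis and metal transport, 2 lists made after the values were seen, fell in part. Haem is built from glycine and succinyl-CoA in mitochondria and cytosol. Cpox, coproporphyrinogen oxidase, had 1477, 1413 and 1023 in Lin+ and 5779, 9871 and 6322 in S0-Low, 5.62-fold higher in S0-Low (adjusted p = 0.0002, edgeR), with the call kept in all 6 omissions, and Alad, aminolevulinate dehydratase, had 537, 436 and 317 against 1494, 1896 and 2579 (adjusted p = 0.0272), which was kept only without S0-Low replicate 1. The other 7 genes were not called in edgeR, against 0.22% of all tested genes called lower. Alas1, the housekeeping form of the first enzyme, stood in the opposite direction, with 8123, 11311 and 13240 in Lin+ against 1552, 1782 and 1413 (log2 fold change 2.78 ± 0.87, adjusted p = 0.182, edgeR) and a call in DESeq2 and in the fit of the 6 libraries, whereas its erythroid form Alas2 had 0, 72.8 and 89.5 against 128, 154 and 175. Of 11 metal transport genes, 5 fell, against 0.22% of all tested genes. Steap3, the ferrireductase of the transferrin cycle, had 715, 870 and 921 against 2315, 2921 and 4176, and Slc11a2, which carries iron out of the endosome, 431, 595 and 665 against 1651, 1779 and 2614 (adjusted p = 0.00698 and 0.02). The copper pump Atp7b had 8.62, 210 and 90.2 against 2181, 2019 and 1113, the largest fall of a called gene with at least 500 normalized counts (log2 fold change -4.09 ± 0.68, adjusted p = 0.00698), and the manganese exporter Slc30a10 and the zinc and manganese importer Slc39a8 fell too (adjusted p = 0.033 and 0.0181). Tfrc, CD71 itself, had 6903, 6359 and 4972 against 8850, 12743 and 13417 and did not pass (0.160). The 5 calls came to 1, 3 or 1 without Lin+ replicate 1, 2 or 3 and to 4, 2 or 2 without S0-Low replicate 1, 2 or 3.

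The rule for named genes took in a further set of rises outside these lists. Slco4c1, an organic anion transporter, Itgb2l, an integrin beta chain of neutrophils, Plbd1, a phospholipase B-like protein of granules, and the RIKEN transcript F730016J06Rik had no count in any S0-Low library and were at least 412-, 363-, 318- and 325-fold higher. Their Lin+ counts were 1285, 2332 and 1669, 1311, 1584 and 1761, 957, 1532 and 1601, and 1185, 1608 and 1383, with adjusted p-values of 0.00253, 0.00253, 0.0206 and 0.00543 in edgeR. F730016J06Rik lies on chromosome 2 at 28095345-28134380, near Fcnb. C3, the central complement protein, had 12703, 7070 and 6710 against 43.8, 60.6 and 74.4, a ratio of 148 (adjusted p = 0.00543). Genes already transcribed in S0-Low rose by smaller factors. Lyst, which governs the size of lysosomes and granules, had 12224, 16494 and 20501 against 3495, 2771 and 5323 (4.25-fold, adjusted p = 0.00543). Gsr, glutathione reductase, had 11773, 10535 and 10708 against 4124, 3438 and 2152 (3.40-fold, 0.0388), and Rap1b, a small GTPase of integrin activation, 22067, 13696 and 17569 against 6570, 7938 and 8652 (2.30-fold, 0.0291). Plbd1 and Gsr lost the call in every omission.

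The rule also named falls of genes in none of the erythroid lists. Slc25a21, a mitochondrial oxodicarboxylate carrier, had 154, 461 and 338 in Lin+ and 3790, 2179 and 6017 in S0-Low, 12.6-fold higher in S0-Low, and Pklr, the red cell and liver pyruvate kinase, 93.7, 384 and 121 against 2424, 3019 and 2072 (adjusted p = 0.00118 and 0.00698, edgeR). Rfx2, a transcription factor, had 182, 95.6 and 143 against 823, 725 and 1559, and Epdr1, ependymin related 1, 109, 76.4 and 169 against 689, 990 and 815 (adjusted p = 0.000905 and 0.00424). Myh10, nonmuscle myosin IIB, had 2140, 1025 and 1128 against 7465, 8043 and 4492 (0.00543), and Cyth3, an exchange factor for ARF GTPases, 1239, 1172 and 1698 against 4630, 4797 and 9037 (0.0097). Col5a1, Reep6, Atp1b2, Abcb4 and Garem1 completed the set, with adjusted p-values of 0.0119, 0.011, 0.0382, 0.0255 and 0.0112. Slc25a21, Rfx2 and Epdr1 kept the call in each omission, and Atp1b2 in none.

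Set beside the other 12 libraries, which hold the 4 later erythroid populations S0-Medium, S1, S2 and S3, the called genes below had these values, which are a description with no test. Of the 88 genes called higher, 79 had every Lin+ library above each of the other 15 libraries, and of the 39 called lower, 37 had every Lin+ library below them. Fcnb had at most 3.70 normalized counts in any of the 12, S100a8 2.24, S100a9 7.21 and Epx 26.7. Of the 88 genes called higher, 67 had under 1000 in each of the 12 libraries. Lyz2 was graded: S0-Low had 445 to 1820, S0-Medium 16.9 to 130, and the rest at most 3.34. Cebpb was not graded in this way: its mean was 1221 in S0-Medium and 9333 in S3, close to the 9772 of Lin+. In Ank1, Rhag, Cpox and Klf1, every Lin+ library lay below every library of the 5 erythroid populations. Ank1 ranged over 7224 to 7563 (S0-Low), 19648 to 27386 (S0-Medium) and 212861 to 314844 (S3). The ranges in the same order were 1888 to 3012, 4213 to 6604 and 35863 to 50508 for Rhag, and 5779 to 9871, 13455 to 22408 and 86805 to 102412 for Cpox. For Klf1, S0-Low (2595 to 6912) and S0-Medium (4176 to 15384) were not separate, and Lin+ (370 to 752) lay below both.

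**Figure D4:**
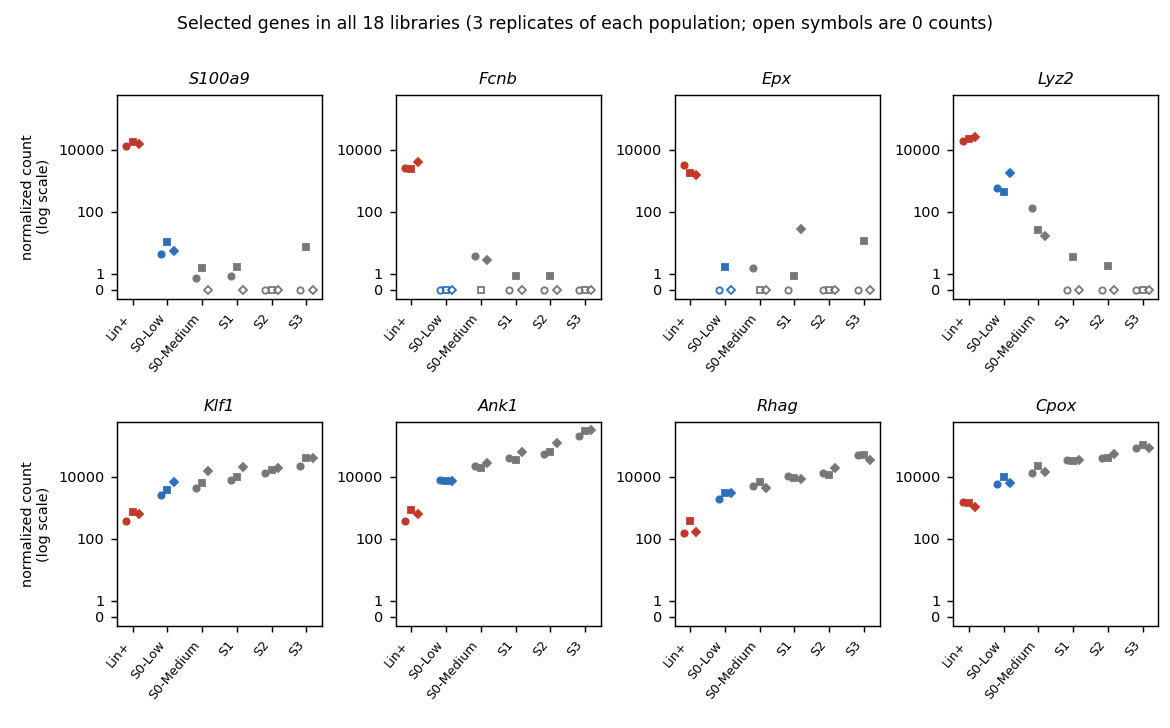
Normalized count (y axis, log scale) of 8 genes in all 18 libraries, 3 for each of the 6 populations on the x axis; Lin+ is red, S0-Low blue and the 4 later erythroid populations grey, symbols give the replicate and open symbols are libraries with no count. The myeloid genes of the upper row are highest in Lin+ in every replicate, and the erythroid genes of the lower row are lowest there.

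The remaining lists gave no calls in edgeR, and their counts by other measures stand against 9.85% of all genes for an unadjusted p under 0.05, 3.26% higher in the fit of the 6 libraries, and 3.03% higher and 0.849% lower in DESeq2. S phase, mitosis, and MYC and ribosome biogenesis genes had medians of -0.23, -0.32 and -0.80 over 17, 18 and 18 tested genes, and 18 of 18 genes of the last list had negative fold changes, with 0.529%, 0.624% and 0.270% of the counts in Lin+ against 0.985%, 1.21% and 0.439% in S0-Low. In that list replicate 3 was lowest in both groups, and the groups overlapped (0.624% in Lin+ replicate 2 against 0.439% in S0-Low replicate 3). In the S phase list no gene had an unadjusted p under 0.05, in each of the mitosis and MYC lists 1 did, and the 1 call by DESeq2 in the 3 lists was lower, in the MYC list. Lysosome and immediate early genes had medians of 1.14 and 1.46. DESeq2 called 6 and 3 of them higher, the fit of the 6 libraries 6 and 1, and 8 and 4 had an unadjusted p under 0.05 in edgeR. Marker genes of the liver's own cells took small shares of the counts in both groups. Hepatocyte genes took 0.00669% to 0.0129% of the counts in Lin+ and 0.00492% to 0.00918% in S0-Low, stromal genes at most 0.00617%, and endothelial genes at most 0.0412%. Cytokine and chemokine genes, chemokine receptors and cytokine receptors had medians of 3.52 (2.90 with the 6 genes without S0-Low counts at their bound), 2.43 and 1.07, with 18, 12 and 21 genes tested. Of the first 2 lists, 10 and 5 genes had an unadjusted p under 0.05 in edgeR, DESeq2 called 4 and 4 higher, and the fit of the 6 libraries 6 and 4. In each of the hepatocyte, stromal and endothelial lists 1 gene had an unadjusted p under 0.05, and 1 endothelial gene was called higher by DESeq2.

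**Figure D5:**
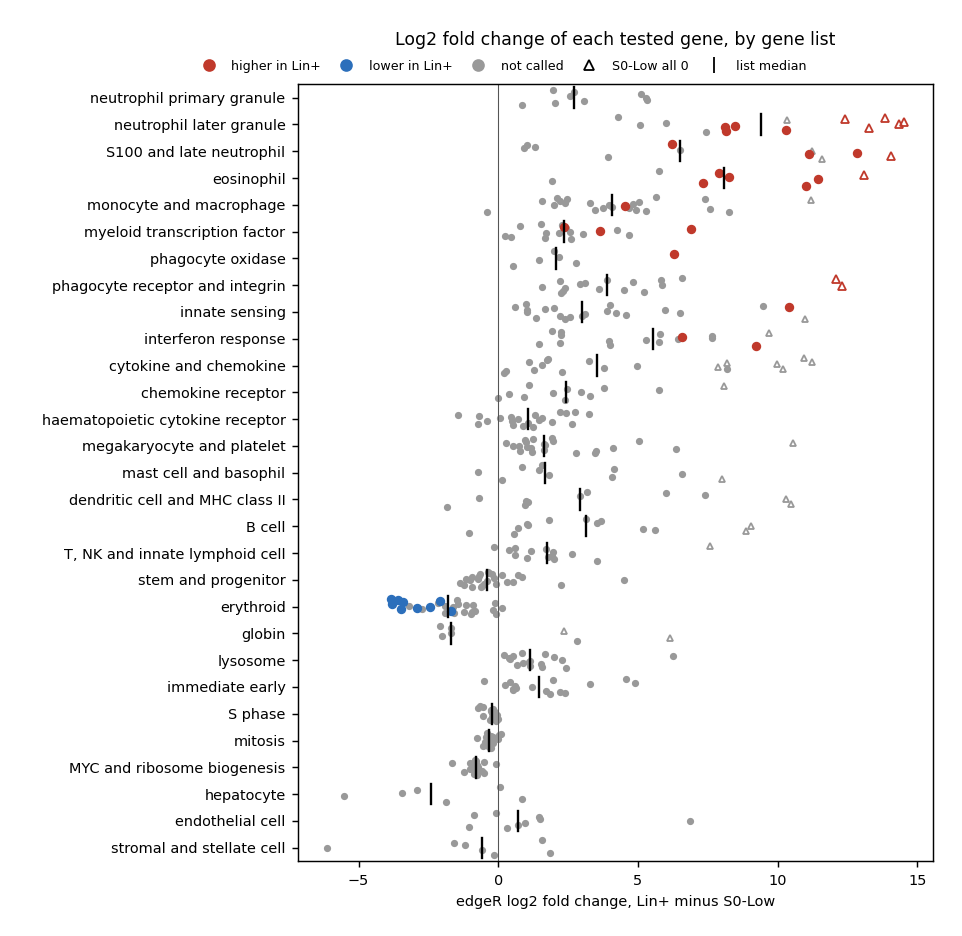
Log2 fold change of Lin+ minus S0-Low (x axis, edgeR) for each tested gene of 29 lists (y axis); circles are genes with counts in S0-Low, open triangles genes with none, red and blue mark genes called higher and lower, and the black bar is the list's median. Red symbols lie in 9 lists of granulocyte, phagocyte and interferon genes, from neutrophil later granule to interferon response, and blue ones in the erythroid list only.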

How the data were processed

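The 4sU-labelled RNA of Lin+ and S0-Low fetal liver cells was analysed within a table of 18 libraries from 6 populations of 3 replicates. The authors made stranded total RNA libraries and deposited estimated counts per gene from Kallisto 0.43.0 against GRCm38 (per the submitters' processing notes), which are whole numbers as deposited. Symbols from a RefSeq table matched 32651 of 54232 identifiers, which hold 98.7% of the counts, and 4 of 472 list symbols did not match.

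Genes were filtered with filterByExpr, and all 18 libraries were fitted with TMM factors and the quasi-likelihood test of edgeR 4.0.16 with Benjamini-Hochberg adjustment over 17755 genes (threshold 0.05, 12 residual degrees of freedom). The spread is thus shared with the 4 later populations. The study's methods name DESeq2 for differential expression, and DESeq2 1.42.0 was run as an alternative. Other alternatives were RLE factors, library totals, no filter, a minimum of 10 counts, a replicate block, only the 6 libraries, robust estimation, no globin genes, and the omission of each library. The members and gene lists (30, and 6 added after the values were seen) were chosen with earlier results of these data known. Named genes were those of the lists, the 15 largest rises and falls among called genes whose groups did not overlap (higher group averaging 500 normalized counts or more), and the 10 most abundant called genes in each direction. Some genes of the lists are not reported here by name. Where S0-Low had no count, the fold is a lower bound against 3 counts in each S0-Low library. Where it had 1 to 3 counts, the ratio has an exact 95% Poisson interval. Shared 31-base runs were counted in GENCODE coding transcripts, which may differ from the authors' set. Promoters and coordinates are from RefSeq, GRCm38.p6.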

Additional observations from a re-analysis of the deposited data

How the results depend on the processing

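The number of genes called depended strongly on the model, the libraries fitted and the filter. Some of these settings changed more than 1 of these at once. Against 88 higher and 39 lower, there were 311 and 82 with no filter on low counts, 227 and 115 with the replicate number as a block, 520 and 53 in a fit of only the 6 libraries, 481 and 135 with DESeq2, and 29 and 28 with at least 10 counts required in each of the 6 libraries, a filter that removes genes without S0-Low counts and leaves 0 of the 9 later granule, 6 eosinophil and 7 stefin calls and 1 of the 4 S100 calls. The block in the fit of the 6 libraries, chosen after seeing the data, gave 712 and 164. Of the 88 and 39 calls, 85 and 32 were shared with the fit of the 6 libraries, 79 and 39 with DESeq2, and 87 and 39 with the block. Scaling by RLE factors gave 112 and 36, by library totals 90 and 42, robust estimation 87 and 40, and leaving out globin genes 88 and 39. The share of calls that were higher was 69.3%, or 75.7% with RLE factors and 68.2% with library totals, and the median log2 fold change of all genes was 0.02, 0.09 and -0.01. Leaving out 1 library gave 29 to 46 higher and 13 to 32 lower. As to pairing, the deviations of same-numbered Lin+ and S0-Low libraries correlated at 0.083, 0.136 and 0.138, each the best for its number, but the labels do not say that a number marks a shared litter or day, so the block was not taken as the main design.

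Of 154 tested genes named, 84 were called, and none of these changed direction. The call was lost by 7 with DESeq2 (Cstdc4, Ear2, Ear6, Plbd1, Slfn1, Stfa3 and Zbp1), by 6 with the minimum of 10 counts, under which 44 more of the 84 were not tested, by 4 in the fit of the 6 libraries, by 1 each with RLE factors (Blvrb), library totals and robust estimation (Prg2 in both) and the replicate block (Fpr1), and by 29 to 47 when a library was left out. Of genes not called, leaving out 1 library turned the sign of the log2 fold change in Cd34 (-0.40 to 0.07), Cd3d (-0.14 to 5.65), Epb41 (-0.22 to 0.01) and Nfe2 (-0.02 to 0.30), and the Slc40a1 log2 fold change ran from -0.69 to 0.30.

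Depth limits what could be seen in S0-Low replicate 3, where the floor of 3 counts is 0.317 CPM. On simulated data for this comparison (16492 genes), 29.7% of 64 genes changed 4-fold were called, 60.3% of 63 changed 16-fold, 74.6% of 67 changed 64-fold, and 1 of 16298 unchanged genes.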

Other observations

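Interferon-responsive genes had higher values in Lin+. Of 16 tested genes of this list, Irf7 and Zbp1 rose (against 0.496% of all tested genes) and none fell, all 16 had groups that did not overlap (15.7% of all tested genes were of this kind), 15 had an unadjusted p under 0.05 (against 9.85%), and the median log2 fold change was 5.53, or 4.95 with the gene without S0-Low counts at its bound. The fit of the 6 libraries called 10 higher and DESeq2 8 (backgrounds 3.26% and 3.03%). Irf7, the factor that amplifies the interferon response, had 1552, 2154 and 2387 normalized counts in Lin+ replicates 1 to 3 and 24.8, 28.7 and 7.97 in S0-Low (ratio 99.1, adjusted p = 0.0311 in edgeR's quasi-likelihood test). Zbp1, a sensor of Z-form nucleic acid, had 391, 785 and 786 against 0, 2.39 and 0 (ratio 820, 95% counting interval 281 to 3975, adjusted p = 0.0432, edgeR). Both lost the call in every omission of a library. Mx1, an antiviral GTPase, had 1397, 2365 and 4689 against 0, 39.9 and 61.1, and Ifit1 had 625, 906 and 1755 against 50.4, 7.18 and 0, neither of them called. Lin+ replicate 3 held the largest share of the list, 0.130% of its counts against 0.0571% and 0.0851% in replicates 1 and 2 and 0.00798% to 0.0164% in S0-Low.

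Further lists were chosen after the values were seen. Of 15 genes of interferon signalling, 8 rose, against 0.496% of all tested genes. Irf9, the DNA-binding part of the complex that type I interferon activates, had 3284, 5092 and 5244 in Lin+ and 1257, 1702 and 709 in S0-Low, and Ifngr2, a chain of the interferon gamma receptor, 3655, 4970 and 5117 against 1090, 1506 and 900 (adjusted p = 0.00806 and 0.00811, edgeR). The type I receptor genes Ifnar1 (3381, 2755 and 4398 against 1937, 1964 and 3389) and Ifnar2 overlapped between the groups. Rnf213, a large ubiquitin ligase, had 31571, 28248 and 39423 against 9210, 7761 and 4808 (ratio 4.56, adjusted p = 0.0148). The list kept 3, 3 or 0 calls without Lin+ replicate 1, 2 or 3 and 2, 2 or 1 without S0-Low replicate 1, 2 or 3.

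Of 8 tested Schlafen genes, Slfn1, Slfn2, Slfn4 and Slfn5 rose, against the same 0.496%. Slfn5 had 2874, 3100 and 4590 in Lin+ and 62.0, 69.4 and 50.5 in S0-Low, and Slfn2, which keeps T cells and monocytes quiescent, 7655, 10623 and 10235 against 200, 283 and 390 (adjusted p = 0.0105 and 0.0319, edgeR). Slfn3 did not move in this direction, with 952, 1050 and 1018 against 1248, 1198 and 1233. The 4 calls came to 2, 1 or 0 without Lin+ replicate 1, 2 or 3 and to 0, 0 or 2 without S0-Low replicate 1, 2 or 3. Of 8 tested genes of the Ifi200 family, which bind DNA, Ifi204, Ifi205 and Ifi207 rose, with 541, 368 and 239 against 0 in every S0-Low library for Ifi205. In this family 41.5%, 56.4% and 12.3% of the 31-base runs of these 3 genes occur in another gene, so that counts of single members are uncertain. The list kept 1 call without Lin+ replicate 1, 2 or 3 or S0-Low replicate 1 or 3, and 0 without S0-Low replicate 2.

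ENSMUSG00000096054, an identifier without a symbol in the reference table, singled out after its values were seen, had 38981, 38011 and 36111 in Lin+ and 4376, 4783 and 4617 in S0-Low (log2 fold change 3.04, adjusted p = 0.000113, edgeR), with little spread in either group, and it kept the call in all 6 omissions.

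Several called genes outside the lists were also singled out after their values were seen. Abca13, a lipid transporter, had 5271, 6328 and 6135 against 42.2, 0.798 and 2.66, and Xdh, xanthine dehydrogenase, 1305, 2272 and 1845 against 0, 6.38 and 0 (adjusted p = 0.00118 and 0.00783, edgeR), and both kept the call in all 6 omissions. Lrrk2, a kinase of endolysosomes, had 3046, 6036 and 6853 against 307, 210 and 151 (adjusted p = 0.00543). Alox15, the 15-lipoxygenase of eosinophils and macrophages, had 802, 889 and 594 against 0, 0.798 and 0, and lost the call in every omission (adjusted p = 0.026).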
